A study of Mus musculus with 31 samples.

Results

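Tumours of the MT breast cancer model fell into a class with high Krt5, a keratin of basal epithelial cells, and a class with low Krt5. The description covers the 8 MT libraries of bulk tumour RNA made without poly I:C, out of 31 libraries in the series. A library counted as Krt5-high where Krt5 reached 100 CPM (a count divided by the library total and put on the usual CPM scale), and as Krt5-low below that. The 3 Krt5-high libraries are MT phenformin 3, phenformin 4 and control 4, and the 5 Krt5-low libraries are MT phenformin 1 and 2 and MT control 1, 2 and 3. Values below follow that order of libraries within each class.

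All were orthotopic tumours of syngeneic mice labelled wild type. Phenformin animals received saline and phenformin, a biguanide drug that blocks respiratory complex I in mitochondria, and controls received saline and PBS. The other 8 MT libraries came from animals given poly I:C, a synthetic RNA duplex sensed by Toll-like receptor 3, together with phenformin (combination) or with PBS. The 15 libraries of the second model, 4T1, serve here only for reference levels. Animal age and sex are not given in the labels, and the labels do not say whether numbered replicates were different animals. Each p-value below then measures only the spread between these libraries, which may be technical. The design text puts MT tumours in FVB mice, while the tags of the libraries titled MT name BALBc and the line 4T1-537; groups follow the titles.

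Mammary ducts have an inner luminal layer, which can make milk, and an outer basal layer, which contracts and holds the duct to its basement membrane. Basal cells carry the keratin pair of Krt5 and Krt14 and depend on the transcription factor Trp63. Sox10 is a transcription factor of the neural crest that is also made by mammary progenitors.

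The libraries were chosen by their Krt5 level. It measured 1653, 1119.9 and 2223 CPM in the Krt5-high libraries, against 36.2, 32.02, 29.0, 20.7 and 23.2 CPM in the Krt5-low libraries. The library just inside the threshold was phenformin 4, at 1119.9 CPM, and the one just outside was phenformin 1, at 36.2 CPM, so no library lay near 100 CPM. Sox10, which prompted the split, ran the other way, at 34.4, 2.82 and 1.32 CPM in the Krt5-high libraries and 168 to 211 CPM in the Krt5-low libraries. Neither gene is counted in any result. The 8 MT libraries with poly I:C held 344 to 2535 CPM of Krt5 and 0.699 to 3.19 CPM of Sox10, and the 4T1 libraries held 0.47 to 6.62 CPM of Krt5.

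The 8 libraries held 12160110 to 19295547 counts each. Mitochondrially encoded genes took 3.80%, 1.63% and 2.73% of counts in the Krt5-high libraries, against 6.13%, 4.11%, 2.51%, 1.33% and 2.91% in the Krt5-low libraries, ranges that overlap. Ribosomal protein genes took 2.16%, 2.57% and 2.56% of counts in the Krt5-high libraries, against 1.45%, 1.80%, 1.68%, 2.05% and 2.04% in the Krt5-low libraries, with no overlap. H2-Ea-ps, an MHC class II pseudogene whose transcription depends on the strain, stood at 12.6 to 43.4 CPM in the Krt5-high and 5.24 to 8.46 CPM in the Krt5-low libraries, while the 4T1 libraries held 214 to 970 CPM. The correlation across genes between libraries, on log2(CPM + 1), was 0.976 to 0.993 within the Krt5-low class, 0.929 to 0.977 within the Krt5-high class and 0.869 to 0.946 between the classes, and genes within a library are not independent replicates.

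Across the 8 libraries 16787 genes had enough counts to compare. A gene was called higher or lower in the Krt5-high class where no library of one class overlapped the other and the means of log2(CPM + 1) differed by at least 1. By that rule 1606 genes were higher (9.57% of genes) and 782 were lower (4.66%), and the groups failed to overlap, at any size of difference, for 41.1% of genes. Because Krt5 in these libraries made the classes, these counts and all gene values that follow describe the classes and carry no test. The sum of a cell type's genes in bulk RNA does not tell fewer cells of that type from less RNA per cell. With a pseudocount of 5 in place of 1 the counts were 931 and 489. The count for each gene list below is to be read against the shares of 9.57% higher and 4.66% lower. A gene near 0 CPM in one class could pass the count filter through the other class alone. It could then be called only as higher in that other class, and the list counts include such genes.

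Phenformin 4 and control 4 carried many lymphoid transcripts and phenformin 3 far fewer, as given below, so the main lists are also given for phenformin 3 alone against the 5 Krt5-low libraries, a comparison of 1 library with no replicate, which called 1332 genes higher and 520 lower. Control 4 alone against control 1 to 3 called 2095 and 913, and the 4 phenformin libraries called 1582 and 818. Of the 1606 and 782 genes called over both arms, 1513 and 720 were also called among controls and 1432 and 695 among phenformin libraries. List counts for phenformin 3 alone are to be read against its own calls over all genes kept.

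The basal programme separated the classes for many of its members. Of 26 basal and myoepithelial genes other than Krt5, 16 were higher in the Krt5-high class and 0 were lower, with a median log2 difference of 2.20 against 0.078 over all genes kept; in phenformin 3 alone 18 were higher. Krt14, the keratin partner of Krt5 (ENSMUSG00000045545, chromosome 11, 100203162 to 100207548; all coordinates are GRCm38), measured 498, 376 and 805 CPM in the Krt5-high libraries, against 16.9, 20.04, 27.5, 28.1 and 21.4 CPM in the Krt5-low libraries. Every Krt5-high library stood above every Krt5-low library, and the class means were 559 ± 221 CPM in the Krt5-high and 22.8 ± 4.85 CPM in the Krt5-low libraries (SD, n = 3 and 5).

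Krt17, a keratin of basal and stressed epithelium, measured 205, 139 and 246 CPM in the Krt5-high libraries, against 8.05, 9.08, 8.65, 7.54 and 7.43 CPM in the Krt5-low libraries. Krt6a, a keratin induced in wounded and hyperproliferative epithelium (ENSMUSG00000058354, chromosome 15, 101689910 to 101694307), measured 51.9, 42.3 and 90.9 CPM in the Krt5-high libraries, against 0.751, 0.336, 0.363, 0.231 and 0.395 CPM in the Krt5-low libraries, close to 0 in each Krt5-low library. Trp63, the transcription factor on which basal identity depends (ENSMUSG00000022510, chromosome 16, 25683763 to 25892102), measured 137, 67.2 and 141 CPM in the Krt5-high libraries, against 9.76, 10.4, 10.8, 12.01 and 11.4 CPM in the Krt5-low libraries. Again the classes did not overlap, and phenformin 4 was the lowest of the Krt5-high libraries for all 4 of these genes. Krt6a, and Dsc3 treated next, passed the count filter only with the Krt5-high class. Their place in the count of higher genes is thus no separate evidence.

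The adhesion genes that fix basal cells to the basement membrane and to each other had the same split. Hemidesmosome genes were among them: Col17a1 stood at 115 to 209.7 CPM in the Krt5-high and 6.005 to 11.3 CPM in the Krt5-low libraries, and Itgb4, the beta chain of the laminin receptor, at 317 to 619 CPM in the Krt5-high and 91.4 to 137 CPM in the Krt5-low libraries. Desmosome genes were split too. Pkp1, a desmosomal plaque protein (ENSMUSG00000026413, chromosome 1, 135871395 to 135919207), measured 208, 103 and 236 CPM in the Krt5-high libraries, against 5.12, 5.31, 3.37, 4.85 and 3.62 CPM in the Krt5-low libraries, the desmosomal cadherin Dsc3 stood at 36.7 to 53.3 CPM in the Krt5-high and 0.471 to 1.09 CPM in the Krt5-low libraries, and Dsg3 at 22.95 to 55.9 CPM in the Krt5-high and 1.38 to 2.62 CPM in the Krt5-low libraries. The contractile members of the list did not divide the classes: Acta2, smooth muscle actin, measured 34.3, 51.7 and 32.9 CPM in the Krt5-high libraries, against 38.01, 26.97, 28.1, 24.5 and 20.2 CPM in the Krt5-low libraries, and the ranges of Myh11 and Oxtr overlapped too.

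**Figure D1:**
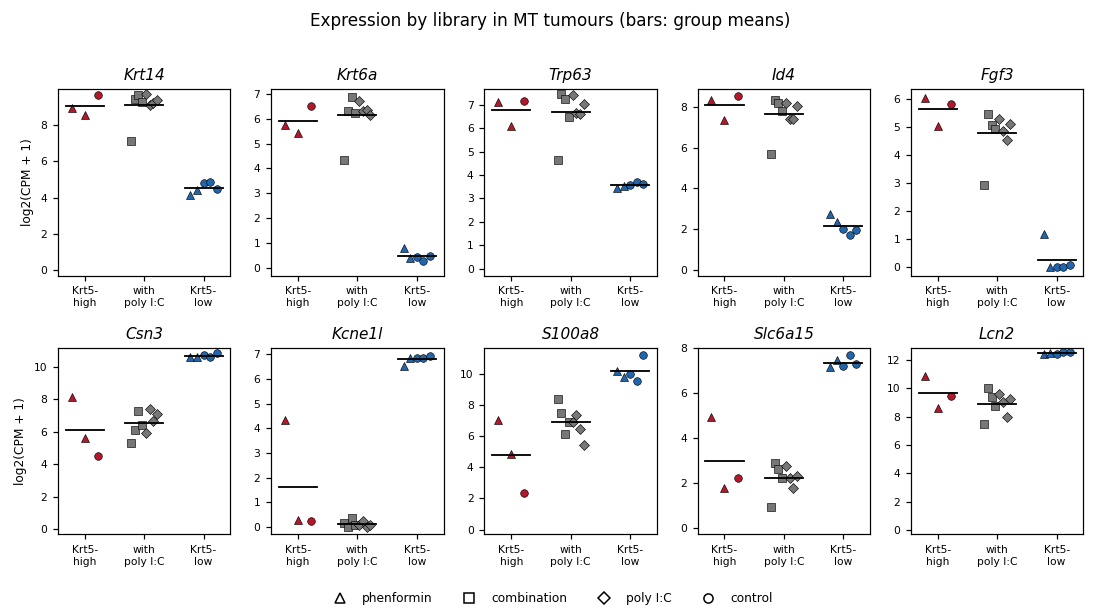
Log2(CPM + 1) of 10 genes in the 16 MT libraries, 1 point per library, with Krt5-high libraries on the left, libraries with poly I:C in the middle and Krt5-low libraries on the right; bars are group means and the point shape gives the treatment. The genes of the upper row are high in the Krt5-high libraries and those of the lower row are high in the Krt5-low libraries, while phenformin 3 stands above the other 2 Krt5-high libraries for Csn3, Kcne1l, S100a8, Slc6a15 and Lcn2.

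Squamous and cornification genes, which mark the outward path of skin-type epithelium, were 10 higher and 0 lower of 13 that passed the count filter, out of 28 listed; phenformin 3 alone gave 10 and 0. S100a14, a calcium-binding protein of stratified epithelium (ENSMUSG00000042306, chromosome 3, 90526856 to 90528837), measured 196, 142 and 301 CPM in the Krt5-high libraries, against 5.12, 5.58, 2.85, 6.16 and 4.08 CPM in the Krt5-low libraries. Klf4, a transcription factor of the skin barrier, measured 75.8, 57.7 and 119 CPM in the Krt5-high libraries, against 11.5, 12.2, 9.33, 6.77 and 8.48 CPM in the Krt5-low libraries. Krtdap, made in differentiating keratinocytes, reached 3.22 to 4.93 CPM in the Krt5-high libraries, against 0 to 0.136 CPM in the Krt5-low libraries. It passed the count filter through the Krt5-high class alone, so its place in the count of higher genes is no separate evidence.

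Among the 15 genes with the largest differences upward, several are regulators or secreted proteins. Id4, an inhibitor of helix-loop-helix transcription factors found in basal mammary stem cells (ENSMUSG00000021379, chromosome 13, 48261228 to 48266026), measured 332, 163 and 373 CPM in the Krt5-high libraries, against 5.66, 4.04, 3.01, 2.31 and 2.83 CPM in the Krt5-low libraries. Alox12e, an epidermal lipoxygenase (ENSMUSG00000018907, chromosome 11, 70315610 to 70322628), measured 205, 137 and 216 CPM in the Krt5-high libraries, against 4.37, 3.77, 2.64, 6.16 and 4.34 CPM in the Krt5-low libraries. Sostdc1, a secreted antagonist of BMP and Wnt signalling, measured 158, 88.9 and 165 CPM in the Krt5-high libraries, against 4.16, 2.22, 2.54, 3.39 and 2.10 CPM in the Krt5-low libraries. Each of these genes was over 10 times as high in the lowest Krt5-high library as in the highest Krt5-low library.

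Fgf3, a secreted fibroblast growth factor of the embryo (ENSMUSG00000031074, chromosome 7, 144838083 to 144844436), was near absent from one class. It measured 65.6, 31.9 and 56.2 CPM in the Krt5-high libraries, against 1.30, 0, 0, 0 and 0.0658 CPM in the Krt5-low libraries, and its median in the 4T1 libraries was 0 CPM. The MT libraries with poly I:C held 6.67 to 43.7 CPM (median 31.6). Fgf4 and Fgf15, both chosen after values were seen, lie close to Fgf3 on chromosome 7, from 144847367 and 144896531. Fgf15 stood at 1.88 to 2.65 CPM in the Krt5-high and 0 to 0.136 CPM in the Krt5-low libraries. Fgf4 was at 0 to 0.164 CPM in the Krt5-high libraries and 0 in all Krt5-low libraries. Ccnd1, a higher gene treated below, lies next to them, from 144929931. Whether the shared position plays a part was not tested. Wfdc12, a small secreted protein of the whey acidic protein family, measured 60.6, 30.7 and 50.5 CPM in the Krt5-high libraries, against 1.16, 0.269, 0.363, 0.154 and 0.329 CPM in the Krt5-low libraries. Fgf3 and Wfdc12 passed the count filter only with the Krt5-high class, so higher was the only call open to them.

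Luminal genes did not fall as a block. Of 23 luminal genes that passed the filter, 9 were higher, 2 were lower and 12 were not called; in phenformin 3 alone 14 were higher and 0 lower. Krt19 stood at 52.1 to 136 CPM in the Krt5-high and 1.38 to 13.4 CPM in the Krt5-low libraries, Foxa1, a factor that opens chromatin for the oestrogen receptor, at 49.3 to 107 CPM in the Krt5-high and 3.70 to 11.7 CPM in the Krt5-low libraries, and Ly6d at 182 to 273 CPM in the Krt5-high and 13.99 to 23.2 CPM in the Krt5-low libraries. Krt8 and Krt18, the general luminal keratins, were present in both classes, at 282 to 408 CPM in the Krt5-high and 207 to 266 CPM in the Krt5-low libraries for Krt8, with log2 differences of 0.55 and 0.90. The 2 lower genes were Muc1 and Elf5, the transcription factor of milk-secreting alveolar cells, which measured 85.99, 28.99 and 50.2 CPM in the Krt5-high libraries, against 134, 133, 181, 155 and 141 CPM in the Krt5-low libraries.

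Several secretory genes of the milk-making cell were lower in the Krt5-high class. Of 16 milk and secretory genes, 5 were lower and 3 higher in the Krt5-high class, while in phenformin 3 alone 5 were lower and 6 higher. Csn3, kappa-casein (ENSMUSG00000001622, chromosome 5, 87925579 to 87932665), measured 282, 47.2 and 21.5 CPM in the Krt5-high libraries, against 1559.6, 1519, 1709, 1515 and 1820.2 CPM in the Krt5-low libraries. Lcn2, a secreted iron-trapping protein (ENSMUSG00000026822, chromosome 2, 32384633 to 32388252), measured 1857, 389.6 and 708 CPM in the Krt5-high libraries, against 5479, 5956, 5655, 5975 and 6256 CPM in the Krt5-low libraries. The Krt5-low libraries kept Lcn2 within a narrow band, and the Krt5-high ones spread widely.

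Xdh, xanthine oxidoreductase, which is needed for milk fat secretion, stood at 55.6 to 104 CPM in the Krt5-high and 296 to 405 CPM in the Krt5-low libraries, and the water channel Aqp5 at 61.2 to 168 CPM in the Krt5-high and 398 to 531 CPM in the Krt5-low libraries. The folate receptor Folr1 was the fifth lower gene. The main casein of milk did not divide the classes: Csn2 measured 172, 23.6 and 16.3 CPM in the Krt5-high libraries, against 63.9, 10.2, 21.4, 41.3 and 18.2 CPM in the Krt5-low libraries. Of the 3 higher genes, Ltf, lactoferrin, stood at 68.5 to 134 CPM in the Krt5-high and 13.4 to 28.8 CPM in the Krt5-low libraries, and Glycam1 is treated with the lymph node genes below.

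The other genes with the largest differences downward were of mixed kinds. Kcne1l, an accessory subunit of potassium channels (ENSMUSG00000090122, chromosome X, 142304752 to 142306294), measured 18.9, 0.201 and 0.164 CPM in the Krt5-high libraries, against 91.02, 115, 115, 114 and 120.0 CPM in the Krt5-low libraries. Atp12a, a proton pump of epithelia, stood at 0.411 to 11.3 CPM in the Krt5-high and 54.8 to 64.1 CPM in the Krt5-low libraries. For both genes phenformin 3 stood between the 2 other Krt5-high libraries and the Krt5-low ones.

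Slc6a15, a transporter of neutral amino acids, stood at 2.42 to 29.5 CPM in the Krt5-high and 143 to 205 CPM in the Krt5-low libraries, the secreted carbonic anhydrase Car6 at 0.411 to 10.2 CPM in the Krt5-high and 54.7 to 71.3 CPM in the Krt5-low libraries, and the Wnt receptor Fzd9 at 0.671 to 7.22 CPM in the Krt5-high and 38.5 to 47.2 CPM in the Krt5-low libraries. The acute-phase genes Saa1 and Saa2 stood at 0.987 to 7.88 and 0.329 to 9.36 CPM in the Krt5-high libraries, against 38.2 to 63.4 and 51.2 to 85.6 CPM in the Krt5-low libraries; reads from these near-identical copies may be split between them, so each value is uncertain. Cspg5, Col4a5, Tc2n, B3galt5 and Flvcr2 were also among the 15, with log2 differences of -3.77, -3.77, -3.76, -3.62 and -3.61.

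S100a8, best known as one subunit of calprotectin, a protein pair of neutrophils, had the largest difference downward of all the named genes. It measured 129, 28.3 and 4.19 CPM in the Krt5-high libraries, against 1143, 891, 1035, 747 and 2392 CPM in the Krt5-low libraries, a log2 difference of -5.39. S100a9, its partner, measured 16.2, 41.9 and 4.69 CPM in the Krt5-high libraries, against 19.7, 10.9, 9.64, 8.93 and 17.04 CPM in the Krt5-low libraries, and its ranges overlapped. Across the neutrophil list 3 of 17 genes were lower, S100a8, Camp and Prtn3, and 2 were higher, Ltf and Cxcl3. Csf3r, the receptor for the neutrophil growth factor, overlapped at 2.88 to 8.79 CPM in the Krt5-high and 6.06 to 13.03 CPM in the Krt5-low libraries, and Ly6g, a surface marker of mouse neutrophils, did not exceed 0.136 CPM in any of the 8 libraries. In the MT libraries with poly I:C, S100a8 was at 42.3 to 339 CPM (median 117) and S100a9 at 49.7 to 341 CPM (median 137).

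Promoters of 2 genes from each class are printed because these genes moved far and in opposite directions; they were chosen after the values were seen, from genes with an entry in the RefSeq promoter table of GRCm38.p6. Each window runs from 250 bases before to 50 after the RefSeq start of the gene, which lies 93 to 112 bases from the start in the gene annotation used here. Capitals mark 2 motifs, ACAAAG on either strand, a core bound by SOX factors, and GCCNNNGGC, a core bound by AP-2 factors, which reads the same on both strands.
Id4 (chr13:48260866-48261165, plus strand): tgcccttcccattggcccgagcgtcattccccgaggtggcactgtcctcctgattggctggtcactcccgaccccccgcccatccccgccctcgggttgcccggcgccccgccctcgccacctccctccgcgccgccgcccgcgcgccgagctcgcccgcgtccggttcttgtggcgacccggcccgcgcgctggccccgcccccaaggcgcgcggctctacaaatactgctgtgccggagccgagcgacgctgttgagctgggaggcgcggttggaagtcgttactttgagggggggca
Alox12e (chr11:70322481-70322780, minus strand): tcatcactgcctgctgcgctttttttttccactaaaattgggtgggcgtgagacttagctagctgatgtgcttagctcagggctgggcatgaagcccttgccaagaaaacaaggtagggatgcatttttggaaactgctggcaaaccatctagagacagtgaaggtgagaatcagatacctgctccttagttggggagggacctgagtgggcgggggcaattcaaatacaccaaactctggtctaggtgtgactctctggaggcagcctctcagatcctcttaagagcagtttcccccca
Kcne1l (chrX:142306149-142306448, minus strand): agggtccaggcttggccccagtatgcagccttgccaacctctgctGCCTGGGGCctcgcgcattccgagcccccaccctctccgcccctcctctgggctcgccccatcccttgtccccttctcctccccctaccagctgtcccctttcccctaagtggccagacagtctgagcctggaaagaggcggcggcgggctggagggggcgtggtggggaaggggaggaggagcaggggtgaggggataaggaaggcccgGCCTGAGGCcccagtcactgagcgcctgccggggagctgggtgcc
S100a8 (chr3:90668821-90669120, plus strand): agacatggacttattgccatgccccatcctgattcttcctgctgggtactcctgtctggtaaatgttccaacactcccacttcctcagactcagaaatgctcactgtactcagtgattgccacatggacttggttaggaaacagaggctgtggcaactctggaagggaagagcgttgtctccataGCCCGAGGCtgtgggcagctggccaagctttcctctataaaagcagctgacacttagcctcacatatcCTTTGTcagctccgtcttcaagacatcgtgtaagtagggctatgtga
Neither motif occurs in the Id4 or Alox12e window. The Kcne1l window holds GCCNNNGGC at bases 46 and 256, and the S100a8 window holds it at base 186 and ACAAAG, on the opposite strand, at base 254.

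The table held promoters for 11182 of the 16787 genes. ACAAAG occurred in 18.0% of promoters of higher genes, 18.2% of those of lower genes and 14% of those of all genes kept, while over all promoters in the table the share was 18.7%. GCCNNNGGC occurred in 24.1%, 27.7% and 24.7% for the same 3 sets and in 16.5% of the whole table. The windows of higher and lower genes thus held ACAAAG about equally often. A match says only that the letters stand in the window.

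**Figure D2:**
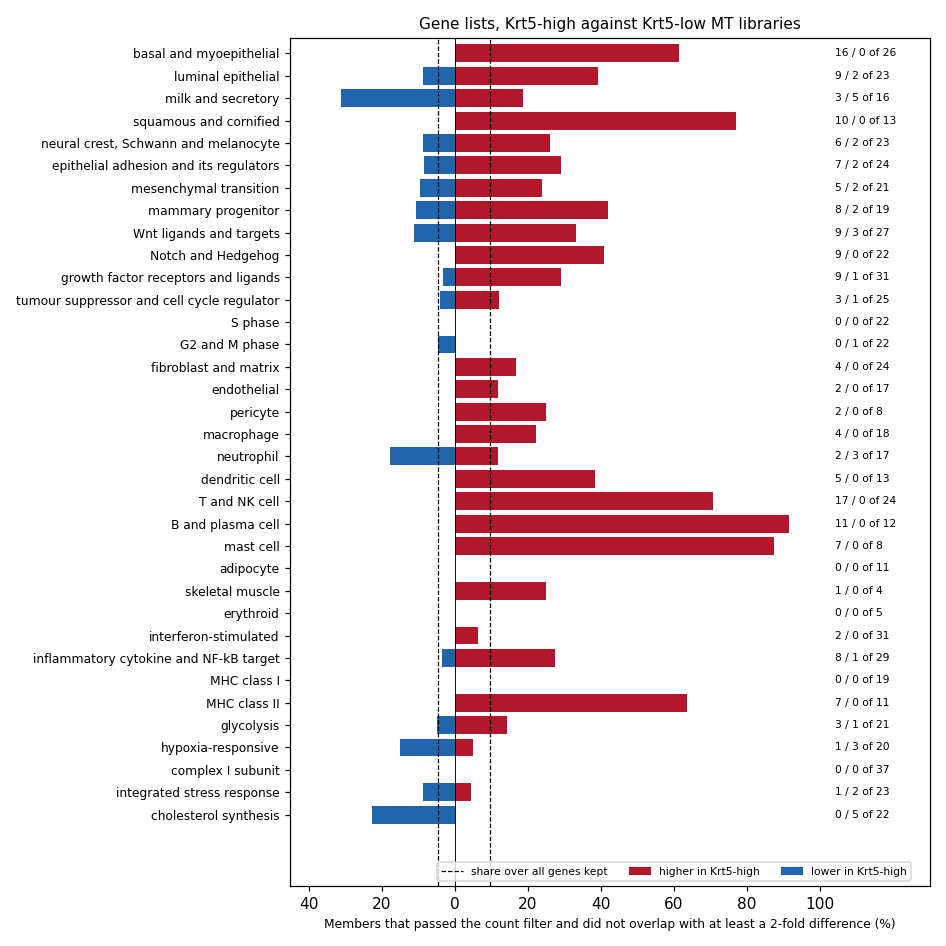
Share of the members of 35 gene lists called higher (right, red) or lower (left, blue) in the Krt5-high than in the Krt5-low libraries, as a percentage of members that passed the count filter, with higher and lower counts printed at the right; dashed lines are the shares over all genes kept, 9.57% higher and 4.66% lower. The basal, squamous, lymphocyte, mast cell and MHC class II lists reach farthest to the right, and the milk and cholesterol lists farthest to the left.

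Neural crest, Schwann and melanocyte genes other than Sox10 did not move together. Of 23 that passed the filter, 6 were higher and 2 lower in the Krt5-high class, with a median log2 difference of 0.26. Higher genes included Tfap2b, an AP-2 factor of the neural crest, at 27.04 to 42.8 CPM in the Krt5-high and 0.942 to 2.52 CPM in the Krt5-low libraries, and Sox9, a relative of Sox10 that also serves mammary stem cells, which measured 998, 484 and 1292 CPM in the Krt5-high libraries, against 241, 297, 389, 308 and 207 CPM in the Krt5-low libraries. The 2 lower genes were Cdh19, a cadherin of Schwann cell precursors, at 0.537 to 3.02 CPM in the Krt5-high and 13.7 to 22.4 CPM in the Krt5-low libraries, and the intermediate filament gene Nes, at 11.5 to 26.01 CPM in the Krt5-high and 56.3 to 91.8 CPM in the Krt5-low libraries.

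Genes of the mesenchymal transition were 5 higher and 2 lower of 21, and epithelial adhesion genes were 7 higher and 2 lower of 24, with 10 higher and 0 lower in phenformin 3 alone. Snai2, a repressor also found in basal mammary cells, measured 98.3, 63.3 and 111 CPM in the Krt5-high libraries, against 5.25, 4.44, 3.94, 2.62 and 3.09 CPM in the Krt5-low libraries. Its relative Snai1 ran the other way, at 6.41, 1.95 and 1.73 CPM in the Krt5-high libraries, against 33.9, 28.5, 25.4, 29.3 and 30.3 CPM in the Krt5-low libraries. Vim, the mesenchymal filament, measured 1322, 1195 and 1523 CPM in the Krt5-high libraries, against 572, 492, 354, 366 and 473 CPM in the Krt5-low libraries, and N-cadherin, Cdh2, stood at 23.02 to 40.5 CPM in the Krt5-high and 1.18 to 2.23 CPM in the Krt5-low libraries. The epithelial genes Epcam and Cdh1 were present in both classes, at 532 to 975 and 245 to 577 CPM in the Krt5-high libraries, against 366 to 570.1 and 171 to 296 CPM in the Krt5-low libraries, so neither class lacked them.

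Signalling genes differed in several families. Of 22 Notch and Hedgehog genes, 9 were higher and 0 lower; the Notch ligands Jag1 and Jag2 stood at 76.8 to 121 and 36.04 to 69.2 CPM in the Krt5-high libraries, against 4.41 to 15.5 and 2.63 to 7.03 CPM in the Krt5-low libraries. Of 27 Wnt genes, 9 were higher and 3 lower, and in phenformin 3 alone 6 were higher and 4 lower. The ligand Wnt10a stood at 12.2 to 21.3 CPM in the Krt5-high and 0.0658 to 0.874 CPM in the Krt5-low libraries, and Rspo3, which amplifies Wnt signals, was lower, at 1.61 to 5.45 CPM in the Krt5-high and 13.2 to 18.2 CPM in the Krt5-low libraries. Lef1 and Tcf7, Wnt-pathway transcription factors that T cells also carry, were lowest of the Krt5-high class in phenformin 3: Lef1 measured 2.65, 136 and 61.8 CPM in the Krt5-high libraries, against 1.09, 0.874, 1.71, 1.15 and 0.921 CPM in the Krt5-low libraries.

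Of 31 growth factor genes, 9 were higher and 1, Ntrk2, was lower. The receptor Fgfr2 measured 56.4, 41.5 and 47.6 CPM in the Krt5-high libraries, against 9.89, 7.67, 8.71, 7.24 and 7.17 CPM in the Krt5-low libraries, and the EGF receptor ligand Ereg stood at 4.70 to 8.88 CPM in the Krt5-high and 0.395 to 1.02 CPM in the Krt5-low libraries. Of 19 mammary progenitor genes, 8 were higher and 2 lower. Among the higher were Aldh1a1, at 16.3 to 31.2 CPM in the Krt5-high and 0.385 to 1.84 CPM in the Krt5-low libraries, and Sox11, at 7.85 to 20.97 CPM in the Krt5-high and 0.104 to 0.682 CPM in the Krt5-low libraries. Bcl11b was higher too, at 43.7, 79.9 and 72.9 CPM in the Krt5-high and 1.91 to 3.70 CPM in the Krt5-low libraries. Like Lef1, it was lowest of the Krt5-high class in phenformin 3. Every Krt5-high value of Fgfr2 was at least 4 times the highest Krt5-low value. Sox11 passed the count filter only with the Krt5-high class, so higher was the only call open to it.

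Of 25 tumour suppressor and cell cycle regulator genes, 3 were higher, Ccnd1, Ccnd2 and Mycl, and 1 was lower, shares close to the 9.57% and 4.66% over all genes kept. Ccnd2, a D-type cyclin, measured 307, 264 and 368 CPM in the Krt5-high libraries, against 29.3, 19.2, 16.4, 13.9 and 16.2 CPM in the Krt5-low libraries, and Ccnd1 measured 952, 465 and 947 CPM in the Krt5-high libraries, against 315, 306, 404, 297 and 314 CPM in the Krt5-low libraries. Cdkn2a, which encodes the inhibitors p16 and p19, was lower, at 65.6, 28.1 and 57.98 CPM in the Krt5-high libraries, against 90.9, 105, 104, 111 and 87.8 CPM in the Krt5-low libraries. Of 22 S phase genes 0 were called, and of 22 genes of G2 and M phase only Aurka was, lower in the Krt5-high class. The proliferation marker Mki67 overlapped, at 360.2 to 411 CPM in the Krt5-high and 301 to 450.3 CPM in the Krt5-low libraries.

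Lymphoid genes were unevenly spread within the Krt5-high class. The B and plasma cell list had 11 higher of 12 and the T and NK cell list 17 higher of 24, but the summed B list was 134 CPM in phenformin 3, 10531 CPM in phenformin 4 and 1169 CPM in control 4, against 18.0 to 60.3 CPM in the Krt5-low libraries. Ms4a1, the B cell antigen CD20, measured 2.06, 291 and 79.4 CPM in the Krt5-high libraries, against 0.273, 0, 0.104, 0.0770 and 0.263 CPM in the Krt5-low libraries. Cd3e, a chain of the T cell receptor complex, measured 16.7, 132 and 65.7 CPM in the Krt5-high libraries, against 9.28, 7.20, 7.10, 8.39 and 12.9 CPM in the Krt5-low libraries. For both genes phenformin 3 was the lowest of the Krt5-high libraries, above every Krt5-low library, and phenformin 4 was the highest. Of the 15 genes with the largest differences upward, Glycam1, Ighg1, Igkc, Ms4a1, Ighg2c, Cd79a and Ighg3 belong to the lymphoid and lymph node genes. Glycam1, Ms4a1, Ighg2c, Cd79a and Ighg3 passed the count filter only with the Krt5-high class, so higher was the only call open to them. Ms4a1 and Cd79a are part of the B list count.

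Genes of lymph node stroma and vessels had the same order. Glycam1, an adhesion ligand of lymph node vessels that mammary cells also make in lactation (ENSMUSG00000022491, chromosome 15, 103562759 to 103565081), measured 4.05, 1240.3 and 417 CPM in the Krt5-high libraries, against 0.136, 0.0673, 0.155, 0.0770 and 0 CPM in the Krt5-low libraries. Ccl21a, a chemokine that draws T cells into lymph nodes, was at 0.0737, 52.2 and 27.96 CPM in the Krt5-high libraries and listed at 0 in every Krt5-low library. Cxcl13, which draws B cells, measured 2.87, 179 and 68.01 CPM in the Krt5-high libraries, against 0.546, 0.673, 0.415, 7.54 and 1.38 CPM in the Krt5-low libraries, and control 2 exceeded phenformin 3. Ccl21a lies among near-identical copies, so its count is uncertain. Ccl21a and Cxcl13 were chosen after values were seen.

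In phenformin 3 alone, 9 of the 12 B and plasma cell genes and 11 of the 24 T and NK genes were still higher than in the Krt5-low libraries, and 1 was lower. The MHC class II list had 7 higher of 11 over the class and 4 in phenformin 3 alone, and the dendritic cell list 5 of 13 and 3. H2-Eb1 stood at 55.9 to 91.1 CPM in the Krt5-high and 19.4 to 25.3 CPM in the Krt5-low libraries. The part that lymph node tissue in the pieces has in these lists was not tested.

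Mast cell genes did not all follow the lymphoid order. Of 8 that passed the filter 7 were higher, 5 of them in phenformin 3 alone. Mcpt1, a mast cell protease, measured 27.4, 15.2 and 9.37 CPM in the Krt5-high libraries, against 0.614, 0.202, 0.363, 0.231 and 0.329 CPM in the Krt5-low libraries, with phenformin 3 highest. Mcpt1, its relative Mcpt2, Mcpt4 and Tpsab1 passed the count filter only with the Krt5-high class, so higher was the only call open to them. Mcpt4, the chymase of connective tissue mast cells, measured 3.76, 25.6 and 5.02 CPM in the Krt5-high libraries, against 0.546, 2.35, 0.518, 0.385 and 0.0658 CPM in the Krt5-low libraries, with phenformin 4 highest.

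**Figure D3:**
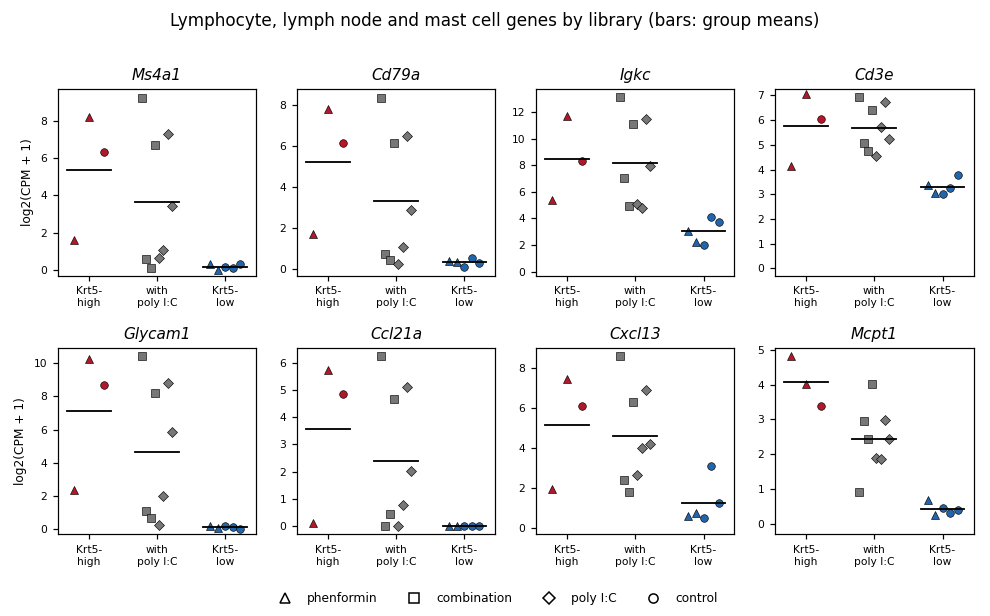
Log2(CPM + 1) of 8 genes of B cells (Ms4a1, Cd79a, Igkc), T cells (Cd3e), lymph nodes (Glycam1, Ccl21a, Cxcl13) and mast cells (Mcpt1) in the 16 MT libraries, 1 point per library, with Krt5-high on the left, poly I:C in the middle and Krt5-low on the right; bars are group means and point shapes give the treatment. For the lymphocyte and lymph node genes phenformin 4 and control 4 stand far above phenformin 3, while the Krt5-low libraries lie near the bottom, except that Cxcl13 in control 2 exceeds its level in phenformin 3.

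Macrophage genes were 4 higher of 18, with their sum at 2138.5 to 2621.5 CPM in the Krt5-high and 2583 to 3088 CPM in the Krt5-low libraries. Fibroblast genes were 4 higher of 24, endothelial genes 2 of 17, and pericyte genes 2 of 8, with 0 lower in each. The endothelial share was near the 9.57% called higher over all genes kept. The interferon-stimulated and MHC class I shares, given next, were below it. Col1a1, the main fibrillar collagen, overlapped at 233 to 449.7 CPM in the Krt5-high and 175 to 504 CPM in the Krt5-low libraries. Interferon-stimulated genes were 2 higher of 31, Cxcl10 and Usp18, and MHC class I genes 0 of 19; phenformin 3 alone had 7 interferon-stimulated genes higher. Adipocyte genes had 0 called of 11, with a median log2 difference of 1.44, and their sum was 178, 1548 and 582.2 CPM in the Krt5-high libraries, against 82.3 to 593 CPM in the Krt5-low libraries. The order of phenformin 4, control 4 and phenformin 3 in that sum was that of the B cell list, and the part of adipose tissue in the class contrast was not tested. Erythroid genes had 0 called of 5 over the class and 3 lower in phenformin 3 alone.

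Inflammatory cytokine and NF-kB target genes were 8 higher and 1 lower of 29. Ptgs2, which makes prostaglandins, measured 66.8, 40.9 and 96.7 CPM in the Krt5-high libraries, against 16.6, 14.5, 6.32, 8.70 and 6.45 CPM in the Krt5-low libraries, and the lower gene was the interleukin 12 subunit Il12a, at 1.07 to 5.23 CPM in the Krt5-high and 20.4 to 38.6 CPM in the Krt5-low libraries. Of 37 complex I subunits, the target of phenformin, 0 were called. Of 22 cholesterol synthesis genes 5 were lower, but 1 was lower and 1 higher in phenformin 3 alone. Glycolysis genes had 3 higher and 1 lower of 21; the lower one was the aldolase Aldoc, at 179.7, 39.1 and 74.6 CPM in the Krt5-high libraries, against 764, 624, 709.9, 773 and 682 CPM in the Krt5-low libraries. Hypoxia-responsive genes had 1 higher and 3 lower of 20, and integrated stress response genes 1 higher and 2 lower of 23. Over all genes kept the shares were 9.57% higher and 4.66% lower, from which the glycolysis, hypoxia and stress response lists differ by few genes. Skeletal muscle genes had 1 higher of 4, Tnni2, which passed the count filter through the Krt5-high class alone.

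Phenformin 3 stood between the classes for 18 genes of the Krt5-low programme, chosen as near absent from the other Krt5-high libraries. These have a Krt5-low mean of at least 20 CPM, and both control 4 and phenformin 4 held 5% of that mean or less. Phenformin 3 played no part in choosing them. In phenformin 3 the same genes stood at 10.4% to 22.3% of the Krt5-low mean, with a median of 17.2% and quartiles of 14.3% and 18.3%. The medians were 2.30% in phenformin 4 and 2.23% in control 4, which the choice of genes held at 5% or less. All 18 genes lay within 10% to 25% in phenformin 3, from S100a8 at the bottom to Tnfrsf19, a receptor of the tumour necrosis factor family, at the top.

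The genes in this narrow band are of varied kinds, including Csn3 at 17.4%, Kcne1l at 17.1% and Fzd9 at 17.5%. The medians over the same genes were 1.44% to 4.16% in the 8 MT libraries with poly I:C, so none of those libraries stood where phenformin 3 did.

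**Figure D4:**
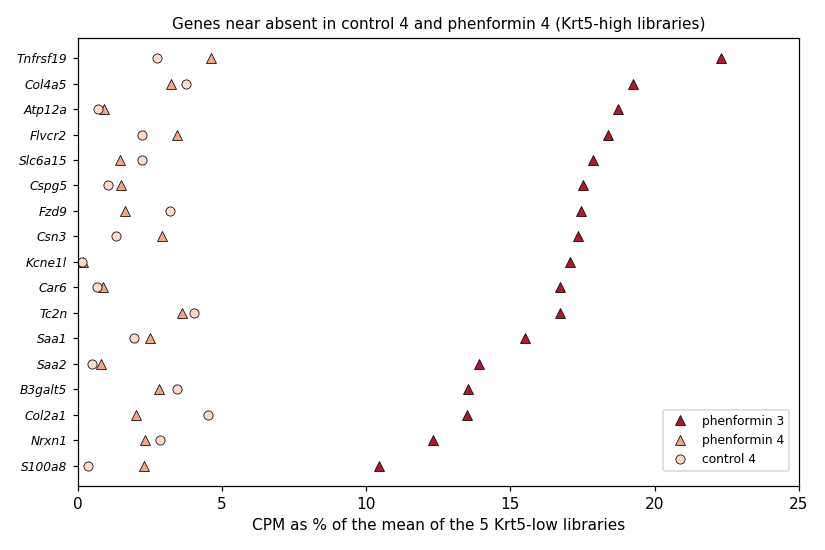
CPM as a percentage of the mean of the 5 Krt5-low libraries for 17 of the 18 genes near absent in control 4 and phenformin 4, 1 line per gene, with triangles for phenformin 3 (dark) and phenformin 4 (light) and circles for control 4. Every gene plotted stands at 10.4% to 22.3% in phenformin 3. In the other 2 Krt5-high libraries each stands at no more than 5%, as the choice of genes required.

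Expression also differed by chromosome. Each Krt5-low library was set against the mean of the other Krt5-low libraries, and every other library against the mean of all 5. The median log2 difference was taken over the genes of each chromosome, and the library's own median was subtracted. Krt5-low libraries are thus compared with their own class, which by itself places them near 0. The classes did not overlap on 13 of 20 chromosomes, 6 lower in the Krt5-high class (2, 3, 5, 17, 18 and X) and 7 higher (4, 6, 7, 9, 13, 15 and 16). On chromosome 3 the Krt5-high libraries stood at -0.33 to -0.17 and the Krt5-low libraries at -0.015 to 0.019. On chromosome 18 they stood at -0.36 to -0.24, against -0.037 to 0.037 in the Krt5-low libraries, and on chromosome X at -0.19 to -0.13, against -0.055 to 0.045 in the Krt5-low libraries. Chromosome 4 ran the other way, at 0.17 to 0.19 in the Krt5-high and -0.031 to 0.025 in the Krt5-low libraries, as did chromosome 7, at 0.14 to 0.17 in the Krt5-high and -0.013 to 0.028 in the Krt5-low libraries.

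The 8 MT libraries with poly I:C, which the Krt5 threshold did not sort, stood at -0.37 to -0.22 on chromosome 3, -0.38 to -0.27 on chromosome 18 and 0.16 to 0.22 on chromosome 4. Both these libraries and the Krt5-high class are set against the same 5 Krt5-low libraries, so they share that reference. DNA copy number was not measured here.

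**Figure D5:**
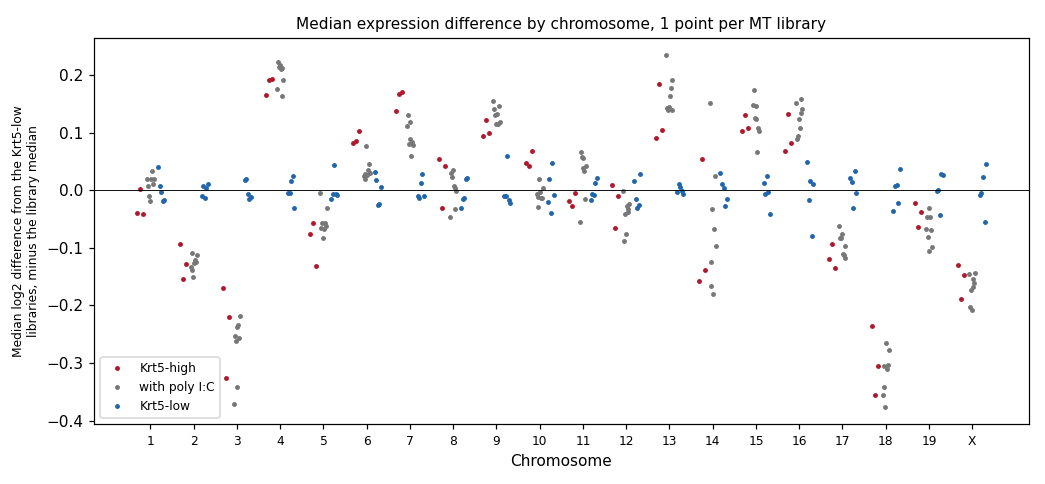
Median log2 expression difference from the mean of the Krt5-low libraries for the genes of each chromosome, after subtraction of the library's own median. A Krt5-low library is set against the other Krt5-low libraries. There is 1 point per MT library, red for Krt5-high, grey for poly I:C and blue for Krt5-low. Krt5-high libraries lie clear of the Krt5-low libraries on 13 of 20 chromosomes, such as below them on 3, 18 and X and above them on 4 and 7, and on 11 of the 13 the poly I:C libraries lie clear on the same side.

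Libraries with poly I:C offered values that the split had not used. Krt14 measured 137 to 831 CPM (median 651) there, Trp63 24.2 to 176 CPM (median 115) and Id4 50.8 to 324 CPM (median 242). Genes of the other class were low, with Csn3 at 37.9 to 167 CPM (median 92.2) and Kcne1l at 0 to 0.301 CPM (median 0.0659). For these 5 picked genes the poly I:C libraries lay clear of the Krt5-low range on the Krt5-high side. All 8 lay above every Krt5-low library for 77.6% of the higher genes, against 16.8% of all genes kept. They lay below for 88% of the lower genes, against 11.5% of all genes kept. The class calls used the same Krt5-low libraries, so the 2 comparisons share that reference. Ms4a1 and Cd79a did not lie clear, with lowest values of 0.0602 and 0.197 CPM among the poly I:C libraries. All 8 libraries were given poly I:C and none was Krt5-low, so no class contrast could be made among them. In their difference from the Krt5-low libraries the agent and the class cannot be told apart.

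Within the 8 libraries with poly I:C, edgeR's quasi-likelihood test asked which genes followed log2 Krt5, with the treatment arm as a term. It called 3541 of 18010 genes rising with Krt5 (19.7%) and 3178 falling (17.6%). Among the genes higher in the Krt5-high class, 43.3% rose and 22.1% fell with Krt5; among the genes lower in that class, 42.3% rose and 6.65% fell, against 21.0% and 17.1% of all genes tested in both. Both sets of class genes thus rose with Krt5 in like shares.

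The calls rest on combination 1, which had the least Krt5, 344 CPM: without it 0 of 17838 genes passed, with 3595 at an unadjusted p under 0.05. Of the 8 libraries combination 1 also held the most of these B cell and lymph node genes, with 594 CPM of Ms4a1, 9108 CPM of Igkc and 1349 CPM of Glycam1, against at most 153, 2805 and 439.8 CPM in the other 7. With B cell genes as a covariate, 2376 genes were called. Krt14 had a slope of 0.89 ± 0.097 (SE, adjusted p = 0.000918) with all 8 libraries and 0.58 without combination 1 (adjusted p = 0.24). Id4 had slopes of 0.98 ± 0.066 (adjusted p = 0.000349) and 1.11 (adjusted p = 0.0933). Dsc3, which was as strongly split between the classes, had a slope of -0.03 ± 0.10 (adjusted p = 0.858).

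The genes of smallest p rising with Krt5 were Serinc2, Sfn, Isg15, Lad1 and Mpzl1, and those falling were Tmem131, Epb41, Eif2ak3, Sesn1 and Itsn2. Sfn, an epithelial 14-3-3 protein, had a slope of 0.89 ± 0.051 (adjusted p = 0.000349). The p53 target Sesn1 had a slope of -0.77 ± 0.064 (adjusted p = 0.000509), at 109 CPM in combination 1 and 26.0 to 44.0 CPM in the other 7 libraries.

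Phenformin had been given to libraries of both classes, so its effect could be tested with the class as a term. Over 4 phenformin and 4 control libraries, 0 of 17515 genes were called by edgeR (0% higher and 0% lower), with 1210 at an unadjusted p under 0.05, and DESeq2 called 31. With the replicate number as a block edgeR called 27, on 2 residual degrees of freedom. Without the class term the test called 0 genes, with 572 at an unadjusted p under 0.05. Slc7a2, a transporter of cationic amino acids, had the second smallest p of the fit, at 30.9, 26.5, 45.0 and 47.1 CPM in phenformin 1 to 4 and 17.4, 13.6, 13.3 and 26.7 CPM in control 1 to 4. Within each class its phenformin libraries stood above its controls, by 0.90 ± 0.13 on the log2 scale (SE), at an adjusted p of 0.458. The other 2 genes of smallest p were Rpsa-ps9 and Gm10800, which are a pseudogene and a predicted gene whose reads may belong to other copies.

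Whether the phenformin difference itself differed between the classes was tested by an interaction. It called 0 of 18462 genes by edgeR (0% in either direction), with 203 at an unadjusted p under 0.05, and DESeq2 called 2. With the replicate number as a block edgeR called 1467, on 1 residual degree of freedom. The smallest p was that of Thrsp, a regulator of fatty acid synthesis. It measured 36.1 and 45.2 CPM in Krt5-high phenformin libraries and 10.2 CPM in the Krt5-high control, against 163 and 177 CPM in Krt5-low phenformin libraries and 253, 234 and 284 CPM in Krt5-low controls, an interaction of 2.58 ± 0.27 (log2, SE, adjusted p = 0.40). G0s2 and Slpi followed, with interactions of 1.87 ± 0.37 and 1.69 ± 0.36, each at an adjusted p of 1. The Krt5-high control is a single library, so the interaction rests on it, and without phenformin 4 the interaction called 47 genes.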

How the data were processed

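Per the labels' protocols, poly(A) RNA isolated on RNeasy columns went into stranded TruSeq libraries. Per the submitters' processing notes, reads were processed with Trimmomatic 0.32.48, STAR 2.3.0 (mm10, GRCm38) and featureCounts 1.4.4. The authors deposited raw read counts per gene; the annotation and strand setting are not given in the sources used here. The table held 39017 genes, 8371 of them at 0 in every library. GENCODE M21 (GRCm38) annotated 37693.

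CPM used column totals. Genes passed filterByExpr (minimum count 10, minimum total 15) over the 2 Krt5 classes. The class contrast is a description with a pseudocount of 1. Tests on counts used edgeR 4.0.16 in R 4.3.3 with TMM scaling and quasi-likelihood F-tests, and Benjamini-Hochberg adjustment at 0.05 over all genes, Krt5 and Sox10 included but not counted. An SE is the log2 fold change divided by the square root of F. DESeq2 1.42.0 was an alternative. The edgeR script was tested on simulated data.

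The members and the 36 gene lists were chosen with earlier results of these data known. Named genes are the 15 largest differences in each direction among called genes with a mean of at least 10 CPM in the higher class and an informative symbol, up to 4 called members per list, and the 5 smallest p in each direction of a fit, or 3 where none was called. Members outside that rule that are named beside a list's count, and Krt5, Sox10, Fgf15, Fgf4, S100a9, Csf3r, Ly6g, Ccl21a, Cxcl13, Rspo3, Tnfrsf19, Col2a1, Col9a1, Col9a2, Sox5, Sox6, Acan, Col9a3, Col11a1, Col11a2 and Matn3, were chosen after values were seen. One named gene is not reported here.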

Additional observations from a re-analysis of the deposited data

Results flagged for a closer look

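Among 122 named genes, 7 had 1 Krt5-low library whose gap to the nearest of the other 4 was large for the range of the 5, on log2(CPM + 1); chance gives about 5% of groups such a gap, or 6.1 of 122, so the number found is near that. Phenformin 1 was the highest Krt5-low library for Fgf3, at 1.30 CPM with the others at 0 to 0.0658 CPM, for Wfdc12, at 1.16 CPM with the others at 0.154 to 0.363 CPM, and for Sox11, at 0.682 CPM with the others at 0.104 to 0.197 CPM. It was the lowest for Kcne1l, at 91.0 CPM with the others at 114 to 120.0 CPM. Control 1 was the highest for Cldn7, at 13.8 CPM with the others at 2.09 to 3.75 CPM, and for Ccnd1, at 404 CPM with the others at 297 to 315 CPM. Control 3 was the lowest for Fbln1, at 3.49 CPM with the others at 5.92 to 6.35 CPM.

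The phenformin 1 values were far from the Krt5-high class, whose lowest libraries held 31.9 CPM of Fgf3, 30.7 CPM of Wfdc12 and 7.85 CPM of Sox11 and whose highest held 18.9 CPM of Kcne1l.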

How the results depend on the processing

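The class contrast called 2388 genes, 1606 higher and 782 lower. With a pseudocount of 5 it called 1420, 931 higher and 489 lower, which follows from the shrinking of low genes. Phenformin 3 alone against the Krt5-low class, chosen after seeing the data, called 1332 higher and 520 lower. Leaving out 1 library gave 1535 to 2153 higher, 680 to 1004 lower and 2215 to 3157 in all. TMM scaling gave 1446 higher and 891 lower, with the median over all genes at 0.0066 in place of 0.078. None of these settings reversed a named gene called in the contrast.

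Phenformin with the class as a term had 0 calls by edgeR, 31 by DESeq2 and 0 to 3 when 1 library was left out. Its interaction with the class had 0 by edgeR, 2 by DESeq2 and 0 to 47 when 1 library was left out; without control 4 the terms could not be separated. The Krt5 slope among poly I:C libraries called 6719 genes, 2376 with B cell genes as a covariate (chosen after seeing the data) and 0 to 7872 when 1 library was left out, 0 without combination 1 and 4318 without combination 2. The cause of these changes was not tested.

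No label says that replicate numbers shared between arms pair the libraries. Same-numbered libraries without poly I:C deviated together with r of 0.742, 0.757, -0.483 and 0.784, but each sign follows the Krt5 class, which only number 3 splits. With class means removed, numbers 1 and 2 gave 0.255 and 0.415 and the others no value, so whether the numbers pair these libraries cannot be told. With poly I:C r was -0.592, 0.034, -0.759 and -0.113. With the replicate number as a block the counts were 27 for phenformin, 1467 for its interaction and 3298 for the slope.

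Low genes such as Fgf3 in the Krt5-low class rest on few counts, and 1 Krt5-high control limits every comparison within the controls.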

Other observations

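Some cartilage-type genes, picked after values were seen and not from a list, differed between the classes. Col9a1, a chain of cartilage collagen IX, measured 113, 20.3 and 34.95 CPM in the Krt5-high libraries, against 590.1, 494, 629, 448 and 447 CPM in the Krt5-low libraries. Col2a1, the main collagen of cartilage, measured 4.94, 0.738 and 1.64 CPM in the Krt5-high libraries, against 22.9, 21.1, 64.00, 41.96 and 32.95 CPM in the Krt5-low libraries, and Sox6, a transcription factor of cartilage, measured 5.82, 1.41 and 2.88 CPM in the Krt5-high libraries, against 22.9, 21.1, 18.1, 20.7 and 23.02 CPM in the Krt5-low libraries. All 3 were lower in the Krt5-high class with no overlap. Acan, the large proteoglycan of cartilage, ran the other way, at 62.5, 35.2 and 94.1 CPM in the Krt5-high libraries, against 6.89, 7.67, 10.1, 7.16 and 6.31 CPM in the Krt5-low libraries. Sox5, the close relative of Sox6, overlapped, at 8.66 to 15.99 CPM in the Krt5-high and 12.5 to 15.3 CPM in the Krt5-low libraries, and Col9a2 stood at 17.3 to 47.7 CPM in the Krt5-high and 52.4 to 109 CPM in the Krt5-low libraries. Col11a2 was higher, at 14.8 to 22.3 CPM in the Krt5-high and 4.01 to 9.01 CPM in the Krt5-low libraries, while Col9a3 and Col11a1 overlapped and Matn3 stayed under 1 CPM in all 8 libraries.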
